A study of Mus musculus with 35 samples.

Results

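Neural progenitor cells (NPCs) from mouse embryos that lack both copies of Mettl14 were compared with cells that keep 1 copy. The Mettl14 protein pairs with Mettl3 to form the enzyme that methylates adenosine in messenger RNA at position N6 (m6A). The comparison took the 6 RNA-seq libraries of batch 1 labelled homozygous knockout (KO, n = 3 culture lines) or heterozygous (Het, n = 3 culture lines), out of 35 samples in the series. The 3 wild-type (WT) libraries of the same batch entered the same fit and are given beside each result. The labels describe a targeted Mettl14 allele with loxP sites around exon 2, built in G4 male ES cells. They give germ-line deletion through EIIa-Cre, with an intercross of Mettl14 +/- animals, and brain deletion through nestin-Cre (Mettl14 f/f;nes-cre), and do not say which of these gave the lines. The lines are labelled as embryonic, with no age given in the sources used here, and each library is labelled as a separate line; which table column holds which numbered line is not stated, so libraries are called by group only. The comparison asks what the loss of the second copy does to RNA levels, against controls that already carry the deleted allele.

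By way of background, m6A is laid down in the nucleus by a complex in which Mettl3 is the catalytic subunit and Mettl14 holds the RNA. Reader proteins of the Ythdf family then shorten the life of many marked transcripts in the cytoplasm. In the embryonic brain the radial glia are the neural stem cells: they divide at the ventricle, carry Nes, Vim and Fabp7, and give rise first to neurons and later to astrocytes.

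The 9 libraries held 14087371 to 19724097 fragments. Neural progenitor markers were abundant in all of them. The 7 fixed markers summed to 6916 to 7881 CPM in Het and 3178 to 3578 CPM in KO. CPM are fragments scaled to an equal library total, adjusted between libraries by TMM factors. Neuronal markers summed to 951 to 1226 CPM in Het and KO, nearly all of it Map2 (means of 1160 and 1043 CPM). Astrocyte markers summed to 344 to 432 CPM in Het and 132 to 307 CPM in KO. That fall was in Aldh1l1 (343 to 45.5 CPM), while Gfap, Aqp4 and S100b were called higher in KO. Neural crest and Schwann cell markers summed to 37.6 to 49.7 CPM in Het and 13.6 to 27.6 CPM in KO, through Cdh19. Markers of cells outside the neural lineage were lower. The 6 microglial markers summed to at most 2.19 CPM and the 5 endothelial markers to at most 5.25 CPM in any library, with Cdh5, Dcn and Foxd3 at 0 in all 9. The 5 fibroblast and pericyte markers summed to 1.03 to 1.76 CPM in Het and 6.35 to 8.05 CPM in KO, through Col3a1 and Pdgfrb, and the 3 choroid plexus markers to 5.55 to 12.7 CPM in Het and 0.706 to 1.74 CPM in KO. Y-linked RNA (Uty, Kdm5d, Eif2s3y and Ddx3y) was present in 2 of 3 Het, 1 of 3 KO and 1 of 3 WT libraries. Loci with no known gene took 2.06 to 2.16% of fragments in KO and 1.03 to 1.29% in Het and WT. The structural RNAs Rpph1, Rmrp and Rn45s were called higher in KO than Het, and of these Rpph1 alone was called higher in KO than WT (their values are given with the largest rises in CPM). The part of these differences in the results below was not tested, apart from the fits without the structural RNAs and with Y-linked RNA as a term.

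RNA levels differed widely between KO and Het and hardly at all between Het and WT. Of 13672 genes tested, 9301 (68.0%) were called between KO and Het at an adjusted p below 0.05 (edgeR quasi-likelihood F test with Benjamini-Hochberg adjustment, used for every adjusted p here unless another tool is named). Of these, 4625 genes (33.8% of those tested) were higher and 4676 (34.2%) lower in KO. Changes of at least 2-fold were called for 1599 higher and 1443 lower genes. The median log2 fold change over all genes was 0.01 and the median absolute log2 fold change 0.50, against a median standard error (SE) of 0.11. The authors' FPKM values, scaled between libraries by the authors, placed that median at -0.11, with 3134 genes higher and 5034 lower (limma), so directions below that lie near 0 depend on the scaling. For 72.2% of genes the 3 KO and 3 Het libraries did not overlap. On a multidimensional scaling plot of the 9 libraries the first axis (74.2% of the variance) ran from 1.616 to 1.906 for KO and from -1.004 to -0.761 for Het and WT together.

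Between Het and WT the same fit called 2 genes, or 0.0146% of those tested, with 1173 at an unadjusted p below 0.05. KO against WT of batch 1 shares the KO libraries with KO against Het: 9463 genes (69.2%) were called there. In an independent set of libraries, batch 3 (2 WT and 2 KO from other lines), 4073 of 12835 genes (31.7%) were called: 2220 (17.3%) were higher and 1853 (14.4%) lower in KO. In bulk RNA of this kind, fewer cells of a type and less RNA per cell cannot be told apart.

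Mettl14 itself (chr3:123368295-123385990, minus strand, mm10) was close to equal in all genotypes when counted over its whole locus. The 3 Het libraries held 24.1, 22.6 and 24.3 CPM, the 3 KO libraries 22.4, 20.0 and 22.4 CPM, and the 3 WT libraries 23.3, 24.9 and 22.6 CPM. All 3 KO values lay just below the lowest Het value. The log2 fold change was -0.13 ± 0.08 (SE, adjusted p = 0.19), which did not pass the test. With loci of no known gene in the fit, it was -0.22 and passed (adjusted p = 0.049). A locus total counts exons outside the deleted part and so cannot check the labels. The deposited assembly of batch 1 does hold a Mettl14 transcript of 10 exons that lacks exactly exon 2 (chr3:123383596-123383684, 89 bases) beside the reference transcript of 11 exons, and the assembly does not say which libraries it came from. Its partner Mettl3 fell in KO. The Het libraries held 41.7, 41.1 and 40.9 CPM and the KO libraries 30.4, 27.5 and 25.7 CPM, without overlap (log2 fold change -0.56 ± 0.08, adjusted p = 6.2e-05), while Het and WT differed by -0.02 (adjusted p = 0.96).

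**Figure D1:**
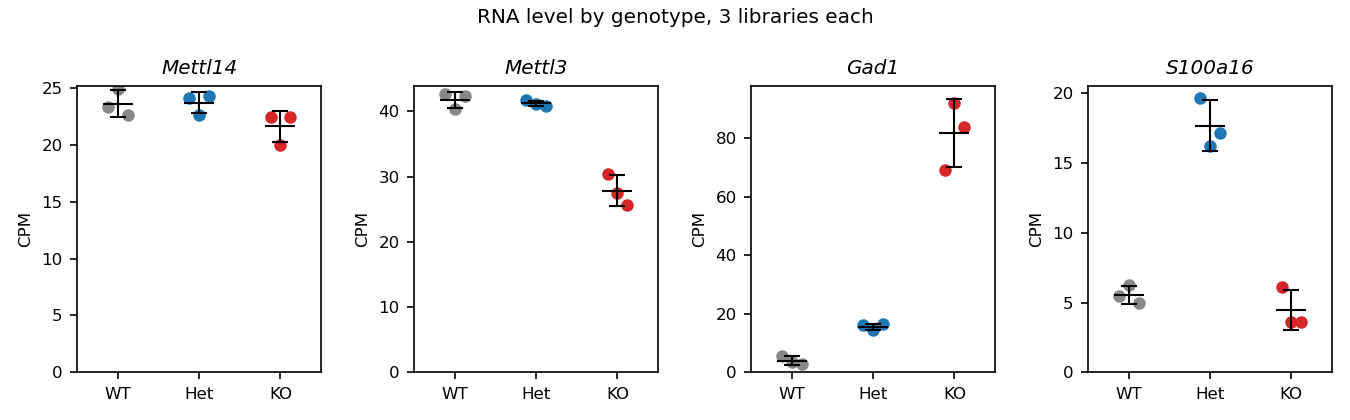
RNA level (CPM, linear axis from 0) of Mettl14, Mettl3, Gad1 and S100a16 in the 3 WT, 3 Het and 3 KO libraries of batch 1, with 1 point per library and bars for mean ± SD. Mettl14 hardly differed, Mettl3 was lower in KO alone, Gad1 rose in 2 steps, and among these batch 1 libraries S100a16 was highest in Het.

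Among the other writer genes the auxiliary subunits rose. Of 9 writer genes tested, 6 rose and 1, Mettl3, fell (median log2 fold change 0.28), beside 33.8% higher and 34.2% lower over all genes. Rbm15b, which recruits the complex to RNA, rose from 131 ± 3.84 CPM in Het to 252 ± 9.16 CPM in KO (SD, n = 3 and 3; log2 fold change 0.94 ± 0.05, adjusted p = 1.1e-07). Cbll1, another subunit, rose from 17.1 to 28.2 CPM (0.72 ± 0.10). Of 14 reader and eraser genes 5 rose and 5 fell (median -0.12), near the shares over all genes given above. The readers that promote decay were among those that rose: Ythdf2 from 155 to 343 CPM (log2 fold change 1.15 ± 0.05) and Ythdf1 from 49.5 to 83.5 CPM (0.76 ± 0.07). The Igf2bp readers, which are known to stabilise marked RNA, fell: Igf2bp1 by 1.04 ± 0.19 and Igf2bp2 by 0.86 ± 0.10 on the log2 scale. The fall of Igf2bp1 was not called on the FPKM scale (adjusted p = 0.88, limma). In batch 3 Ythdf2 was 1.32 ± 0.13 higher in KO than WT.

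The promoters printed here belong to 3 genes whose RNA and whose histone marks at the start both differ in the results that follow: Gad1, which rose, and Dhh and Pcp4l1, which fell to near 0. Each is the 250 bases before the RefSeq start (GRCm38.p6), read 5′ to 3′ on the gene's strand, with every CG dinucleotide, the motif searched, in capitals. CG reads the same on both strands. Over the 32851 promoters in the RefSeq table, 92.1% hold at least 1 CG in this window and the median is 6. Gad1 (chr2:70561879-70562128, plus strand, 35 bases from the start in the authors' annotation) holds 17, Dhh (chr15:98898541-98898790, minus strand) holds 9 and Pcp4l1 (chr1:171196269-171196518, minus strand) holds 5. Of the 131 genes named by rule, a promoter entry exists for 92.
Gad1: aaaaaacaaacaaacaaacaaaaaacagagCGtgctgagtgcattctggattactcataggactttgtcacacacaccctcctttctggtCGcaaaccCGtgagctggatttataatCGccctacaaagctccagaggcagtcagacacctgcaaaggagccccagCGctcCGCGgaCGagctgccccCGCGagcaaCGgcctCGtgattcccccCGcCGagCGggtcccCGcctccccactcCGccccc
Dhh: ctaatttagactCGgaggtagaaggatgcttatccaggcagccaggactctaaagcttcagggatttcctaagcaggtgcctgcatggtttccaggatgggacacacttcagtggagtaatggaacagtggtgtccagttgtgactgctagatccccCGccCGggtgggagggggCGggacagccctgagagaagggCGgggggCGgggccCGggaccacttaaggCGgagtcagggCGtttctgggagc
Pcp4l1: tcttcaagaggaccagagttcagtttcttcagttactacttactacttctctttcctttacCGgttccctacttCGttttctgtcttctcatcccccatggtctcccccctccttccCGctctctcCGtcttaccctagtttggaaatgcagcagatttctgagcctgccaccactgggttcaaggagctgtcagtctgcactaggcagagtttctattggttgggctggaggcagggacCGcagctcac

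The deepest falls, taken over genes with a mean of at least 5 CPM in the higher group, left 0 to 1.98 CPM of RNA per KO library. Anxa3 (chr5:96793385-96845968), an annexin that binds phospholipids in the presence of calcium, stood at 116, 85.7 and 78.0 CPM in the Het libraries, at 95.6, 54.5 and 45.1 CPM in WT, and at 0.211, 0.0571 and 0.0706 CPM in KO. The lowest Het library was far above the highest KO library. The log2 fold change was -9.54 ± 0.56 (adjusted p = 1.8e-06), and in batch 3 it was -4.91 ± 0.27. Fam135b (chr15:71445678-71727838) went from 34.0, 31.3 and 35.1 CPM in Het to 0.0527, 0.171 and 0.141 CPM in KO (-8.06 ± 0.41). Dhh (chr15:98893027-98898540), the desert hedgehog ligand, went from 37.3, 31.8 and 24.9 CPM to 0.211, 0.286 and 0.0706 CPM (-7.26 ± 0.43, adjusted p = 7.2e-07). Spp1, which encodes the secreted protein osteopontin, fell by 6.95 ± 0.43 and Pcp4l1 by 6.69 ± 0.37 on the log2 scale.

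Some of these losses rest on very few fragments in KO. Thbd, which encodes the anticoagulant receptor thrombomodulin, had 624 fragments over the 3 Het libraries and 2 over the 3 KO libraries. That is a Het to KO ratio of 298 (95% exact counting interval 82.2 to 2.47e+03, counting error only). Nefl, the light neurofilament chain, had 266 and 2 fragments, a ratio of 127 (34.8 to 1.05e+03). Its WT libraries ranged from 1.32 to 8.64 CPM, and in batch 3 its change of -1.73 ± 0.97 did not pass the test (adjusted p = 0.21). The other genes with the lowest fold changes were Gpr98, a very large adhesion receptor (-5.86 ± 0.28), the bradykinin receptor gene Bdkrb2 (-5.78 ± 0.69) and Golga7b (-5.78 ± 0.31). Of these 10 genes, 9 were also called lower in KO of batch 3, where Nefl was the exception. Among all genes called lower against Het and tested in both batches, the share was 34.8%.

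**Figure D2:**
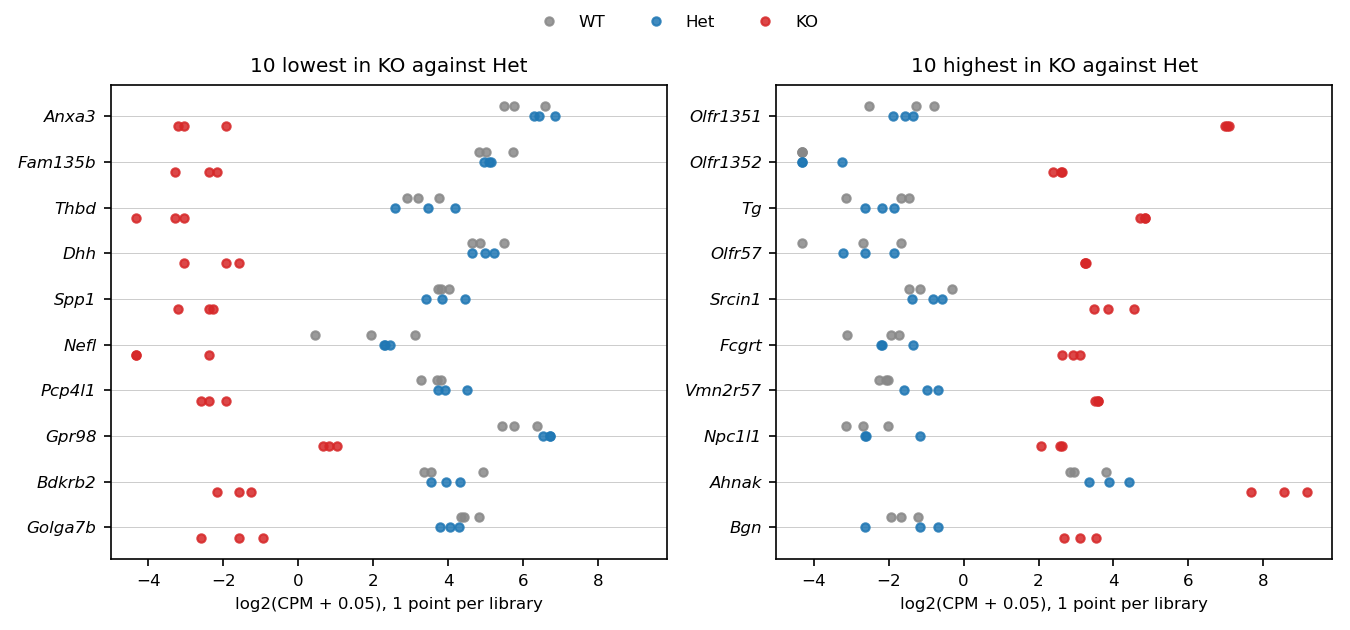
Level of the 10 lowest and 10 highest named genes of KO against Het, as log2(CPM + 0.05), with 1 point per library for WT (grey), Het (blue) and KO (red). Het and WT points overlap except for Gpr98, Golga7b and Vmn2r57, and the KO points lie apart from both in all 20 genes.

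Of the 10 largest rises, 9 were in genes below 1 CPM in every Het and WT library. Ahnak was the exception. The top of this group was a run of olfactory receptor genes on chromosome 10. Olfr1351 (chr10:79017324-79018283, plus strand) was at 0.223, 0.286 and 0.341 CPM in Het and at 135, 126 and 130 CPM in KO (log2 fold change 8.81 ± 0.19, adjusted p = 6.8e-10). Olfr57 (chr10:79034723-79035802) went from 0.112, 0.0572 and 0.227 CPM to 9.48, 9.54 and 9.39 CPM (6.09 ± 0.39). Olfr1352 (chr10:78981050-78984721) had 1 fragment over the Het libraries and 292 over the KO libraries, a ratio of 306 (95% exact counting interval 54.4 to 1.21e+04). These 3 genes lie within 54.8 kb on 1 strand. Their neighbours Olfr1353 and Olfr1354, singled out after their values were seen, had no fragment in Het and KO was at least 80.6-fold and 71.2-fold higher, against a floor of 3 fragments over the group. In the deposited assembly the Olfr1351 locus is an unspliced transcript of 28507 bases (chr10:79004938-79033444) around a gene of 960 bases, so its fragments need not come from the receptor's own exon. In batch 3 Olfr1351 stood at 0 in both WT libraries and at 0.664 and 0.345 CPM in the KO libraries, and was below the filter. Olfr1353 was tested there and was higher in KO (5.13 ± 0.89, adjusted p = 0.0043).

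The other genes of this group rose in both batches. Tg (chr15:66670770-66850720), which encodes the thyroid hormone precursor thyroglobulin, went from 0.112, 0.172 and 0.227 CPM in Het to 26.1, 28.7 and 28.7 CPM in KO (7.30 ± 0.25, adjusted p = 1.2e-08). The assembly gives it a spliced transcript of 47 exons. In batch 3 Tg was at 0 in both WT libraries and at 14.5 and 8.62 CPM in KO. Vmn2r57, a vomeronasal receptor gene, went from 0.279, 0.572 and 0.454 CPM to 11.9, 11.9 and 11.4 CPM (4.73 ± 0.22). Srcin1, a regulator of Src kinase, rose by 5.04 ± 0.37, Fcgrt, the neonatal Fc receptor, by 4.99 ± 0.32, Npc1l1, a sterol transporter, by 4.64 ± 0.39, and Bgn, the matrix proteoglycan biglycan, by 4.58 ± 0.38. Ahnak, a giant scaffold protein, went from 10.1, 14.8 and 21.2 CPM to 202, 572 and 375 CPM (4.64 ± 0.50, adjusted p = 0.00013). Its KO libraries ranged widely, and all lay far above the highest Het library. The 7 genes of this group outside the olfactory receptors were all called higher in KO of batch 3. Among all genes called higher against Het and tested in both batches, the share was 44.7%.

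The largest falls in CPM included radial glial and housekeeping RNA. Vim, the intermediate filament of radial glia, went from 4076, 3206 and 3312 CPM in Het to 1443, 1421 and 1342 CPM in KO (-1.33 ± 0.09, adjusted p = 3.4e-07). Tnc, the matrix protein tenascin C, went from 2427, 1927 and 1678 CPM to 235, 225 and 218 CPM (-3.15 ± 0.13). In batch 3 KO was lower than WT by -1.50 ± 0.18 for Vim and -2.41 ± 0.17 for Tnc on the log2 scale. Ckb, Actb and Hspa8, which encode creatine kinase, beta-actin and a chaperone, fell by 0.57, 0.72 and 0.96 on the log2 scale between Het and KO. In batch 3 they gave 0.01, -0.14 and -0.14 (adjusted p = 0.96, 0.63 and 0.56).

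The largest rises by level included structural RNAs. Rpph1, the RNA of ribonuclease P, went from 5078, 5581 and 4063 CPM in Het to 9862, 11836 and 12002 CPM in KO (1.19 ± 0.14). On log2(FPKM + 1) its rise was 0.65 and was not called (adjusted p = 0.059, limma). Rmrp, the RNA of ribonuclease MRP, went from 3349, 3367 and 1509 CPM to 6064, 5286 and 5759 CPM (1.06 ± 0.28), and the ribosomal precursor Rn45s from a mean of 9261 to 12419 CPM (0.42 ± 0.12). On the FPKM scale Rn45s changed direction (-0.17, adjusted p = 0.41, limma). The WT libraries held 13090 to 14553 CPM of Rn45s, above Het. Rpph1 and Rmrp were at or below 0.473 CPM in every batch 3 library, far below their level in batch 1. Rn45s stood at 417 to 681 CPM in batch 3, against 8367 to 14975 CPM in batch 1. Whether RNA capture differed between the batches was not tested. Apoe, the lipid carrier of astrocytes, went from 210, 299 and 377 CPM to 1604, 2807 and 2044 CPM (2.87 ± 0.35, adjusted p = 0.00018), and Eef1a1, a translation factor, from a mean of 11000 to 12569 CPM (0.19 ± 0.06, adjusted p = 0.013; not called on the FPKM scale, with loci of no known gene in the fit, or without Het library 3).

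Genes of DNA synthesis fell nearly as a block. Of 40 DNA replication genes tested, 39 fell and none rose, beside 34.2% lower and 33.8% higher over all genes. The median log2 fold change was -1.68, beside 0.01 over all genes. The exception was Fen1, a flap nuclease, at -0.40 ± 0.19 (adjusted p = 0.088). Ccne2, a cyclin of S phase entry, went from 29.4, 27.4 and 27.4 CPM in Het to 4.74, 2.11 and 3.32 CPM in KO (-3.04 ± 0.24, adjusted p = 3e-06). Chaf1b, a chromatin assembly factor, went from 44.1, 43.2 and 40.7 CPM to 9.95, 5.71 and 7.77 CPM (-2.45 ± 0.15). The helicase subunits Mcm2 to Mcm7 fell by between 1.48 and 2.19. In batch 3, KO against WT, 26 of the 40 fell and 1, Fen1, rose (median -0.57), beside 14.4% lower and 17.3% higher over all genes there.

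Mitotic genes fell with them. Of 38 tested, 37 fell and 1 rose (median -1.23), beside 34.2% lower and 33.8% higher over all genes. Spc25 and Ndc80, both of the kinetochore, fell by 1.66 ± 0.18 and 1.65 ± 0.21, and Top2a, the topoisomerase of dividing cells, went from 1119 to 376 CPM (-1.57). The member that rose was Cdc25b, a phosphatase that activates Cdk1, from 39.6, 41.4 and 39.8 CPM in Het to 64.1, 46.5 and 54.7 CPM in KO (0.45 ± 0.11, adjusted p = 0.0028). It was not called on the FPKM scale (adjusted p = 0.21, limma). The summed level of the mitotic list was 2147 to 3899 CPM in KO and 6473 to 6766 CPM in Het.

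Among the G1 genes, Ccnd1 and Ccnd2 fell furthest. Ccnd1, which drives G1 progression with Cdk4 and Cdk6, went from 2086, 1487 and 1325 CPM in Het to 178, 138 and 172 CPM in KO (-3.33 ± 0.18, adjusted p = 4.9e-07). Ccnd2 went from 1384, 1152 and 1050 CPM to 235, 133 and 182 CPM (-2.71 ± 0.20). In batch 3 the same genes gave -1.77 and -0.55 against WT. The third D cyclin gene, Ccnd3, fell by 0.31 ± 0.11, less than Rbl1 (-1.55), Cdk2 (-0.91) or Cdk4 (-0.55). Of 9 genes in this list 6 fell and 1, the pocket protein gene Rbl2, rose (0.31 ± 0.07). Of 7 inhibitors of cyclin-dependent kinases 3 fell and 1 rose, with a median of 0.05, beside 34.2% lower and 33.8% higher over all genes: Cdkn2a fell by 2.34 ± 0.32, Cdkn1a by 1.52 ± 0.08 and Cdkn2b by 1.21, and Cdkn1b alone was called higher (0.21 ± 0.06, adjusted p = 0.01). The rise of Cdkn1b was not called on the FPKM scale or with loci of no known gene in the fit.

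**Figure D3:**
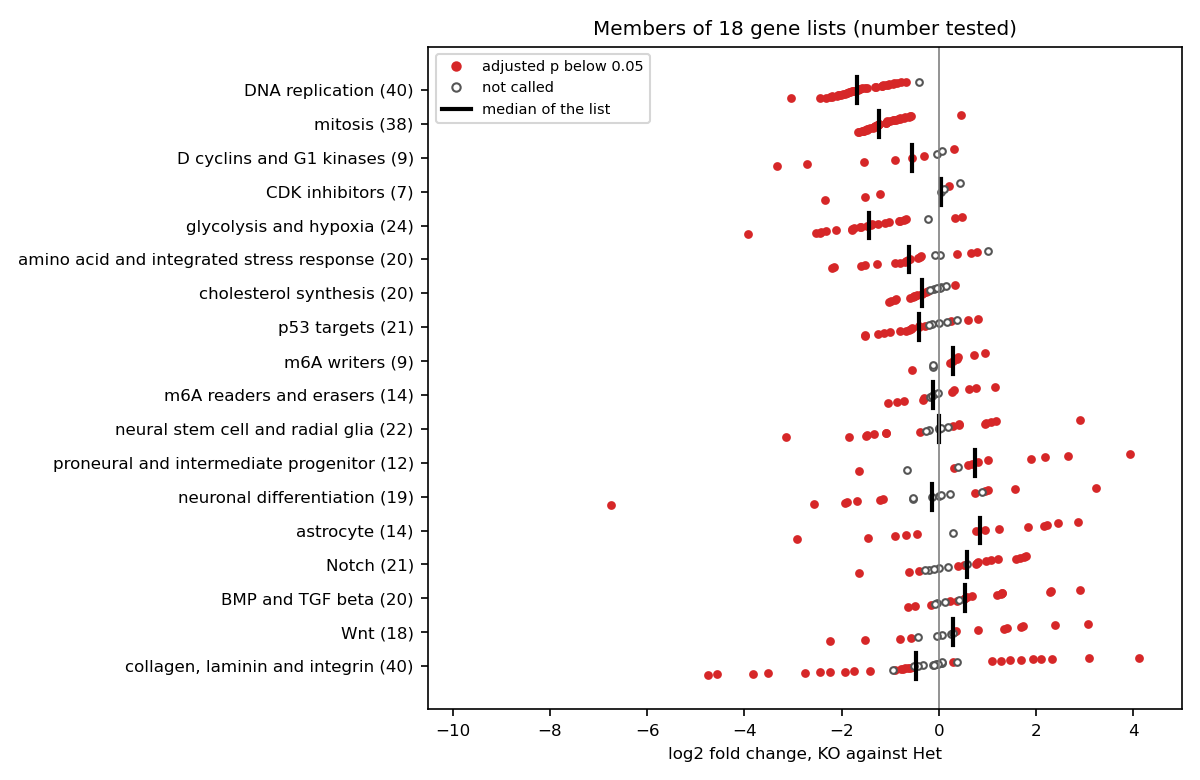
Log2 fold change of KO against Het for the tested members of 18 gene lists. Each point is 1 gene (filled red where the adjusted p is below 0.05, open where not called) and the black bar is the median of the list. The replication and mitosis lists lie almost wholly below 0, and the proneural, astrocyte, Notch and BMP lists have medians above 0.

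Most genes of the glycolysis and hypoxia list fell as well. Of 24 glycolysis and hypoxia genes tested 21 fell and 2 rose (median -1.44), beside 34.2% lower and 33.8% higher over all genes. Slc16a3, the lactate exporter, went from 31.5, 39.2 and 28.3 CPM in Het to 2.58, 1.71 and 2.19 CPM in KO (-3.92 ± 0.31, adjusted p = 4.5e-06), and Pfkp, a phosphofructokinase, by 2.52 ± 0.20. Ldha, which makes lactate, went from 797 to 149 CPM. The members that rose were the isoenzyme genes Pfkm (0.48 ± 0.06) and Hk1 (0.33 ± 0.09), of which Hk1 was not called on the FPKM scale. In batch 3, 4 of the 24 were called lower and 3 higher (median -0.21), beside 14.4% lower and 17.3% higher over all genes there. Slc16a3 gave -1.12 in batch 3 (adjusted p = 0.24).

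Genes of amino acid, sterol and stress pathways fell more than they rose, beside 34.2% lower and 33.8% higher over all genes. Of 20 genes of amino acid supply and the integrated stress response 14 fell and 3 rose (median -0.61), with Mthfd2 and Asns, enzymes of folate and asparagine synthesis, down by 2.19 ± 0.25 and 2.16 ± 0.08. Ddit3, a stress transcription factor, was called higher (0.37 ± 0.14, adjusted p = 0.04) and lost that call in several alternative fits, given in the closing section. Of 20 cholesterol synthesis genes 13 fell and 1 rose (median -0.34), while in batch 3 none was called lower and 4 were called higher (median -0.03). All genes of batch 3 gave 14.4% lower and 17.3% higher. Idi1 fell by 1.03 ± 0.09, and Fdft1 rose by 0.33 ± 0.07. Of 21 p53 target genes 13 fell and 3 rose (median -0.40), among them Pmaip1, which promotes cell death (-1.53 ± 0.12), and Btg2, an antiproliferative gene (0.60 ± 0.14).

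Of 22 radial glial genes tested, 8 rose and 8 fell (median 0.00), near the shares of 33.8% higher and 34.2% lower over all genes. Nes, the intermediate filament that names the nestin-Cre line, went from 1383, 1143 and 1045 CPM in Het to 409, 255 and 327 CPM in KO (-1.85 ± 0.17, adjusted p = 1e-05). Fabp7 fell from 2055 to 735 CPM. Transcription factors of the same cells went both ways: Pax6 fell by 0.39 ± 0.08 and Nr2e1 by 1.09 ± 0.17, and Sox9, Hes1, Emx2 and Gli3 were not called. Id4, an inhibitor of basic helix-loop-helix factors, went from 7.37, 8.58 and 10.7 CPM to 38.4, 97.9 and 64.1 CPM (2.91 ± 0.35), and Sox2, which maintains the progenitor state, from 387 to 752 CPM (0.96). Msi1, an RNA-binding protein of stem cells, rose by 1.17 ± 0.12.

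Proneural genes mostly rose, from levels that ranged from below 1 CPM to 244 CPM in Het. Of 12 tested 9 rose and 1 fell (median 0.74), beside 33.8% higher and 34.2% lower over all genes. Neurog2, which drives cortical neurogenesis, went from 0.614, 0.629 and 1.14 CPM in Het to 7.69, 16.4 and 12.4 CPM in KO (3.93 ± 0.36, adjusted p = 3.3e-06). Insm1 rose by 1.02 ± 0.30 and was not called on the FPKM scale, and Dll3, a Notch ligand, fell by 1.64 ± 0.18. In batch 3 Insm1 went the other way (-0.90, adjusted p = 0.016). Of the 9 proneural genes tested in both batches, 1 was called higher and 2 lower in batch 3, beside 17.3% and 14.4% over all genes. Tbr1, tested in batch 3 alone, was also lower there (-1.97, adjusted p = 0.03).

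Of 19 later neuronal genes tested, 5 rose and 7 fell (median -0.15), beside 33.8% higher and 34.2% lower over all genes. Dcx, a microtubule protein of young neurons, went from 2.34, 2.34 and 4.49 CPM to 11.6, 44.5 and 30.1 CPM (3.23 ± 0.54, adjusted p = 0.0008), while Gap43, a growth cone protein, went from 267, 227 and 199 CPM to 96.8, 51.5 and 68.0 CPM (-1.68 ± 0.22). In batch 3 Dcx gave 0.38 (adjusted p = 0.43) and Gap43 gave 0.00 (adjusted p = 0.99).

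The astrocyte list rose in the main, with exceptions. Of 14 tested 8 rose and 5 fell (median 0.85), beside 33.8% higher and 34.2% lower over all genes. Gja1, the gap junction protein of astrocytes, went from 48.5, 40.1 and 46.7 CPM in Het to 175, 341 and 218 CPM in KO (2.44 ± 0.24), and Aqp4, the water channel, from 26.1 to 122 CPM. Aldh1l1, a folate enzyme used as an astrocyte marker, went the other way: it stood at 322, 330 and 376 CPM in Het, 250, 216 and 200 CPM in WT, and 39.7, 52.0 and 44.8 CPM in KO (-2.91 ± 0.12, adjusted p = 6.7e-08). Cd44, a hyaluronan receptor, fell by 1.45 ± 0.14. In batch 3 the list gave 4 higher and 5 lower of 13, beside 17.3% higher and 14.4% lower over all genes there. Gja1 gave 0.07 in batch 3 (adjusted p = 0.73). Of 11 oligodendrocyte lineage genes 3 rose and 4 fell in KO against Het, beside 33.8% higher and 34.2% lower over all genes. The progenitor genes Pdgfra (-1.39 ± 0.41, adjusted p = 0.019) and Gpr17 (-2.31 ± 0.73, adjusted p = 0.025) lost their calls without KO library 1 (adjusted p = 0.074 and 0.091), and Gpr17 also without KO library 3 (0.067) or Het library 3 (0.058).

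The Notch, BMP and TGF beta, Wnt and Hedgehog lists held more rises than falls, and the EGF and FGF list more falls than rises. Over all genes 33.8% were higher and 34.2% lower. Of 21 Notch genes tested 12 rose and 3 fell (median 0.58): the receptor Notch2 went from 81.4, 88.3 and 85.6 CPM in Het to 267, 323 and 301 CPM in KO (1.80 ± 0.09, adjusted p = 9.1e-08), the target Hey2 rose by 1.76 ± 0.31, and the glycosyltransferase Lfng fell by 0.62 ± 0.11. Of 20 BMP and TGF beta genes 13 rose and 3 fell (median 0.53), with the inhibitor Smad7 from 2.12, 2.23 and 2.27 CPM to 10.3, 13.3 and 8.97 CPM (2.3 ± 0.22) and the ligand Bmp7 down by 0.63 ± 0.08. Of 18 Wnt genes 9 rose and 4 fell (median 0.30), among them the inhibitor Apcdd1 (3.06 ± 0.29) and the secreted antagonist Sfrp2 (-2.23 ± 0.21). Of 10 Hedgehog genes 5 rose and 3 fell: the ligand Dhh fell as above, the pathway factor Gli2 rose by 2.15 ± 0.23, the co-receptor Boc by 1.27 ± 0.10, and the inhibitor Hhip fell by 1.70 ± 0.32. Of 18 genes of EGF and FGF signalling 4 rose and 8 fell (median -0.20), with the receptor Fgfr2 up by 2.00 ± 0.17 and the feedback inhibitor Spry4 down by 1.76 ± 0.26. In batch 3 the Notch list gave 4 higher and 3 lower of 21 (median 0.01). Hedgehog gave 2 and 3 of 10 (-0.08) and Wnt 6 and 2 of 17 (-0.04). BMP and TGF beta gave 6 and 0 of 20 (0.22), and EGF and FGF 2 and 4 of 18 (-0.07). All genes of batch 3 gave 17.3% higher and 14.4% lower.

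Of 20 histone acetylation genes 7 rose and 7 fell (median -0.05), near the shares over all genes (33.8% higher and 34.2% lower). The acetyltransferases Crebbp and Ep300 rose by 0.50 and 0.49, the deacetylase gene Hdac11 by 1.30 ± 0.13, and Hdac9 and Hdac1 fell by 1.31 ± 0.10 and 1.18 ± 0.07. Of 22 Polycomb and H3K27 demethylase genes 10 rose and 8 fell (median 0.18), beside the same shares over all genes. In batch 3 that list gave 1 higher and 6 lower of 21 (median -0.01), beside 17.3% higher and 14.4% lower over all genes there. The complex 2 genes Rbbp7 and Phf19 fell by 1.28 ± 0.08 and 1.57 ± 0.17, Ezh1 rose by 1.12 ± 0.14, and Pcgf2 of complex 1 rose by 2.08 ± 0.26.

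Matrix and imprinted genes moved both ways. Of 40 collagen, laminin and integrin genes 10 rose and 18 fell (median -0.47). Col18a1 went from 63.0, 42.6 and 42.8 CPM in Het to 2.11, 1.71 and 1.69 CPM in KO (-4.74 ± 0.34) and Itga4, an integrin, from 86.1, 59.5 and 60.6 CPM to 3.00, 1.71 and 4.09 CPM (-4.57 ± 0.26), while Col27a1 rose by 3.08 ± 0.23. Of 16 imprinted genes 5 rose and 5 fell (median 0.11), near the shares over all genes. Mest, expressed from the paternal copy, went from 388, 329 and 264 CPM to 27.5, 18.5 and 19.8 CPM (-3.89 ± 0.20), and Grb10, a growth inhibitor, fell by 1.62 ± 0.09. Nnat rose by 0.91 ± 0.10 in batch 1 and was lower in KO of batch 3 (-0.74, adjusted p = 0.0046). In the small lists, Myc family genes gave 6 higher and 2 lower of 11, interferon genes 2 and 6 of 13, and immediate early genes 4 and 5 of 18. The shares over all genes were 33.8% higher and 34.2% lower. In batch 3 the Myc family gave 4 higher and 0 lower of 11, and interferon genes 0 and 2 of 11. Immediate early genes gave 1 higher and 10 lower of 17 there (median -1.13). All genes of batch 3 gave 17.3% higher and 14.4% lower.

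The second comparison asked whether 1 lost copy already changes RNA, and 2 genes passed. Gad1 (chr2:70562164-70602012, plus strand), which makes the transmitter GABA, rose in steps: the WT libraries held 5.71, 3.55 and 2.88 CPM, the Het libraries 16.1, 14.5 and 16.4 CPM, and the KO libraries 69.2, 92.0 and 83.9 CPM. None of the groups overlapped. Het exceeded WT by 1.96 ± 0.21 (adjusted p = 0.028) and KO exceeded Het by 2.38 ± 0.18 (adjusted p = 2.2e-06). No other tested gene of the GABAergic list passed either contrast: of 5 tested, Gad1 alone was called. In batch 3 Gad1 was at 3.48 and 3.65 CPM in WT and at 86.2 and 84.8 CPM in KO. S100a16 (chr3:90541223-90543151), a calcium-binding protein of the S100 family, was instead highest in Het among the batch 1 libraries: 5.46, 6.25 and 4.97 CPM in WT, 19.7, 16.2 and 17.2 CPM in Het, and 6.11, 3.65 and 3.60 CPM in KO. Het exceeded WT by 1.67 ± 0.19 (adjusted p = 0.028), and KO lay below Het by -1.97 ± 0.20 on the log2 scale (adjusted p = 5.2e-06). In batch 3 S100a16 was at 29.6 and 27.7 CPM in WT, above every batch 1 Het library, and at 10.1 and 13.1 CPM in KO (-1.30 ± 0.19, adjusted p = 0.0024). Each call between Het and WT was lost without any 1 Het library and without WT library 2 or 3. Each was also lost with Y-linked RNA as a term (adjusted p = 0.13). In these fits the log2 fold changes stayed between 1.59 and 1.76 for S100a16 and between 1.75 and 2.02 for Gad1.

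The genes around Mettl14 were read as well, since an edited locus can carry nearby changes with it. Of 26 tested genes within 4 Mb of Mettl14 on chromosome 3, 4 rose and 13 fell (median -0.20), beside 175 and 260 of 669 on the whole chromosome. Of the closest neighbours, Sec24d, a coat protein of secretory vesicles, fell by 0.95 ± 0.16 on the log2 scale, and Prss12 and Snhg8 did not pass the test (-0.19 and 0.08). Arhgap29 and Tmem56, singled out after their values were seen, fell from 75.1 to 4.52 CPM and from 36.5 to 3.68 CPM. Synpo2 and Usp53, singled out in the same way and nearer to Mettl14, rose by 2.21 ± 0.42 and 1.43 ± 0.16 on the log2 scale.

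The shares of genes called in KO differed with the number of m6A lists that marked them in WT cells. The authors deposited 4 lists of m6A regions, in which each of 2 immunoprecipitates was set against each of 2 inputs. A gene was counted as marked where a region overlapped its exons by at least 1 base. Of 5603 genes marked in all 4 lists 43.3% were higher and 29.4% lower in KO than Het (95% Wilson intervals 42.0 to 44.6 and 28.2 to 30.6, counting genes only), with a median log2 fold change of 0.13. Of 3243 genes marked in 1 to 3 lists 24.4% were higher and 45.0% lower (median -0.18), and of 4506 genes with no region 28.1% were higher and 32.9% lower (median -0.02). Over all 13352 loci of a single gene the shares were 33.6% and 34.4%. Genes are not independent, so these shares carry no test, and the read depth behind the regions is not known here. Between Het and WT the medians of the 3 groups lay between -0.01 and 0.00. In batch 3 the medians were 0.11, -0.09 and -0.08.

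Because a region can be easier to find in an abundant RNA, the shares were also taken within quartiles of mean level. In the top quartile (above 76.1 CPM) 40.6% of 1814 genes marked in all 4 lists were higher and 36.2% lower, against 16.9% and 60.9% of 657 unmarked genes. In the lowest quartile (up to 7.71 CPM) the groups were closer, at 35.5% and 28.0% of 533 marked genes and 30.9% and 20.0% of 2222 unmarked genes. Among the named genes, Ythdf2, Notch2, Smad7 and Fgfr2, which rose, carried a region in all 4 lists, and so did Tnc, Nes, Ccnd2 and Ccne2, which fell. Gad1, Apoe, Anxa3 and Fam135b carried none.

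**Figure D4:**
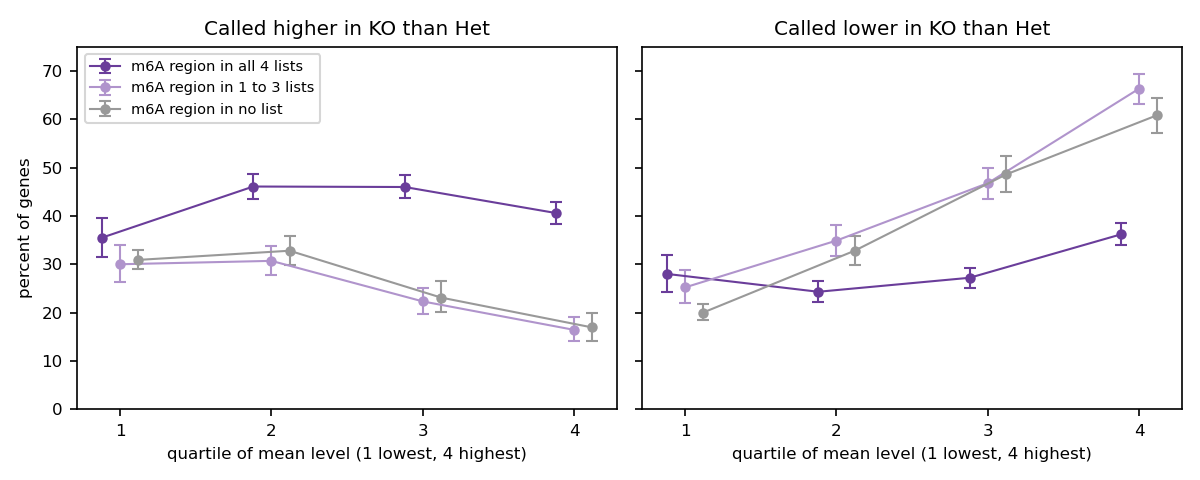
Percent of genes called higher (left) or lower (right) in KO than Het, by quartile of mean level and by the number of deposited m6A lists with a region over the gene's exons. Points are shares and bars are 95% Wilson intervals. In the top quartile, 60.9% of genes without a region were lower in KO, against 36.2% of genes with a region in all 4 lists.

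Histone marks at gene starts were read in the 2 WT and 2 KO lines of batch 3, so in other lines than those of the RNA given here. H3K27ac, acetylation of histone H3 at lysine 27, marks active starts, and H3K27me3, its trimethylation, marks starts held silent by Polycomb. Starts, taken from the reference transcripts where a gene had them, were matched to the authors' peaks within 1 kb. Genes with an H3K27ac peak in both WT lines and no KO line (n = 105) were higher in KO in 20.0% and lower in 44.8% of cases (median -0.62), and those with a peak in both KO lines and no WT line (n = 33) in 63.6% and 9.09% (median 1.11). For H3K27me3 the order was reversed: genes with a peak in both KO lines and no WT line (n = 162) were higher in 17.3% and lower in 54.9% (median -0.69), and those with a peak in both WT lines and no KO line (n = 77) were higher in 67.5% and lower in 10.4% (median 0.91). Where H3K27ac was present in all 4 lines (n = 11404) the shares were 33.6% and 36.4%.

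The genes whose promoters are printed above were picked because their RNA and marks both differ, so they illustrate single starts and add no evidence. Values are the authors' fold enrichment over input for each line. Dhh had H3K27ac of 2.60 and 3.38 in the WT lines and no peak in the KO lines, and H3K27me3 of 2.98 and 3.74 in WT and 5.08 and 4.99 in KO. Pcp4l1 had H3K27ac of 3.23 and 4.94 in WT and none in KO, and H3K27me3 in all 4 lines. Gad1 had H3K27ac in 1 WT line at 2.77 and in both KO lines at 4.12 and 4.21, and its H3K27me3 was 8.59 and 10.2 in WT and 5.28 and 4.81 in KO. Anxa3 lost H3K27ac (5.09 and 4.94 in WT, none in KO). The olfactory receptor genes and Vmn2r57 had no peak of either mark at their reference starts in any line. The assembled Olfr1351 transcript begins at chr10:79004938, outside the 1 kb window, and was not read there. Olfr1351 RNA was at most 0.664 CPM in batch 3, the batch of these lines. Ccnd1 kept H3K27ac in all 4 lines (9.64 and 10.4 in WT, 8.15 and 9.97 in KO).

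Batch 3, which shares no library with KO against Het, gave its calls mostly in the same direction. Of 12401 genes tested in both, 1864 were higher in KO in both comparisons, which is 44.7% of the 4173 called higher against Het and 87.4% of the 2133 called higher in batch 3. Another 1560 were lower in both, 34.8% of 4483 and 87.0% of 1794. Calls in opposite directions were few: 47 genes were higher against Het and lower in batch 3, and 23 the reverse. The former included Mars2, a mitochondrial tRNA synthetase, at 96.4, 91.5 and 90.7 CPM in Het and 183, 210 and 200 CPM in KO, but lower in KO of batch 3 (-2.01 ± 0.22, adjusted p = 0.00077). The latter included Car2, a carbonic anhydrase, at 138, 121 and 122 CPM in Het and 62.1, 46.1 and 55.1 CPM in KO, but higher in KO of batch 3 (1.11 ± 0.20, adjusted p = 0.0053). Both were singled out after their values were seen.

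**Figure D5:**
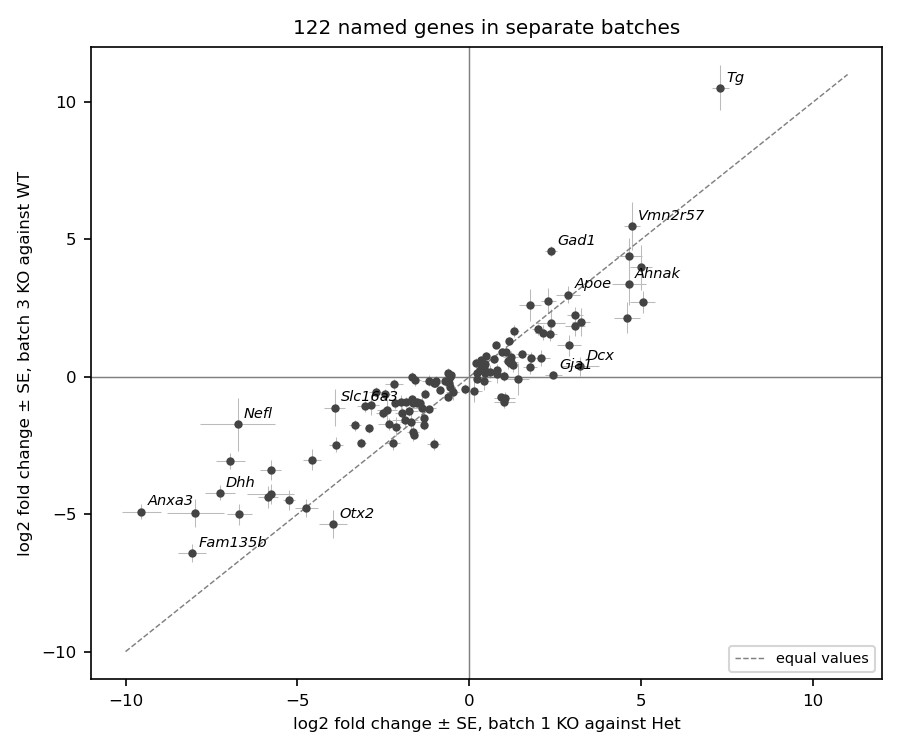
Log2 fold change ± SE of KO against Het in batch 1 (horizontal) and of KO against WT in batch 3 (vertical) for the 122 named genes tested in both, with a dashed line of equal values. For 111 of the 122 the sign was the same, and Nefl, Slc16a3, Dcx and Gja1 lay closer to 0 in batch 3. Most of these genes were named for their calls in KO against Het, so this count is not the share over all genes.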

How the data were processed

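Polyadenylated RNA depleted of residual rRNA was sequenced, per the labels' protocols. The submitters' processing notes name mm10, TopHat2 2.1.0, TopHat, Cufflinks, Cuffdiff, Bowtie2 2.3.1 and MACS2, without roles. The authors deposited, per the file headers, an estimated count of fragments and an FPKM value per locus and library, and broad peaks with fold enrichment and −log10 q-values per comparison with an input. Expected counts were rounded per locus and summed by gene symbol. For CPM they were divided by the library total over the genes kept in the fit, times the library's TMM factor. Loci of no known gene (8847 of 32572) and 2 loci without an estimate (status HIDATA) were left out of the fit. The batch 2 table is identical to that of batch 1 and was not analysed here. All 9 libraries entered 1 fit (edgeR 4.0.16, TMM, filterByExpr, robust quasi-likelihood), with batch 3 fitted alone. The SE of an edgeR log2 fold change was its absolute value divided by the square root of the F statistic, not an SE estimated by the fit. Alternatives used DESeq2 1.42.0, limma 3.58.1 on log2(FPKM + 1 or 0.1), other filters and left-out libraries. Peaks were matched with bedtools 2.31.1. Scripts were tested on simulated data. The series' text calls replicates biological.

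Members and gene lists were chosen with earlier results of these data known. Genes were named by rule: Mettl14 and Mettl3, the 10 highest and 10 lowest fold changes and the 5 largest CPM changes each way among called genes without overlap between libraries and with a mean of at least 5 CPM, up to 2 called members each way of each list, and the called genes of Het against WT. Aqp4, Gfap, S100b, Map2, Cdkn2b, Crebbp, Ep300, Fabp7, Ldha, Sox2, Top2a, Fen1, Pax6, Nr2e1, Ccnd3, Rbl1, Cdk2, Cdk4, Tbr1 and the Mcm genes were added after their values were seen.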

Additional observations from a re-analysis of the deposited data

How the results depend on the processing

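KO against Het gave 8148 to 11925 calls over the alternatives, and 8568 to 9298 with 1 library left out. The FPKM settings gave 3134 higher and 5034 lower (median log2 -0.11) or 3102 and 5046 (-0.13). Of 2472 values of named genes other than Mettl14, 2414 kept their call, 55 lost it, 1 (Thy1) gained it and 2 reversed: Rn45s was -0.17 in both FPKM settings. Mettl14 was -0.22 and gained a call with loci of no known gene (chosen after seeing the data, as were the fits without structural RNAs and with the Y-linked term). Ddit3 lost its call most widely (adjusted p 0.054 to 0.28 where lost, over edgeR, DESeq2 and limma). Het against WT gave 25 calls with DESeq2, 1 in each FPKM setting, 0 with the Y-linked term, and 0 to 17 with 1 library left out (17 without WT library 1, 0 without any other). Batch 3 gave 2079 to 5642 calls with 1 library left out (2079 without WT library 2 and 2357 without WT library 1), where the lone library is assumed to vary like the other group. With m6A regions of at least 4-fold enrichment, 50.2% of genes marked in all 4 lists were higher. The causes were not tested. No paired analysis was possible because the labels tie no KO line to a Het line. Depth limits genes such as Thbd and Nefl, with 2 fragments in KO.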

Other observations

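Lists for cells other than the neural lineage had few members above the filter. Their counts stand beside 33.8% higher and 34.2% lower over all genes. Of 6 fibroblast and pericyte genes tested 4 rose and none fell in KO (median log2 fold change 1.42), with a summed level of 10.1 to 11.6 CPM in Het and 22.5 to 24.6 CPM in KO. Of 4 endothelial genes 2 rose and 1 fell, of 2 microglial genes neither was called, and the 1 erythroid gene tested, the haem enzyme gene Alas2, was called higher (0.45) in the full fit and not in 5 of the alternatives. Of 2 choroid plexus genes 1 fell, the transcription factor gene Otx2: it stood at 11.6, 5.49 and 9.20 CPM in Het and 0.474, 0.685 and 0.494 CPM in KO. Of 5 neural crest and Schwann cell genes 2 rose and 2 fell.

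Further genes called in opposite directions in the batches were the protocadherin gene Pcdhb11, at 6.53, 6.06 and 8.69 CPM in Het and 31.8, 36.2 and 43.6 CPM in KO (2.39 ± 0.18 by edgeR, adjusted p = 7.8e-07) but -2.42 ± 0.63 in batch 3, and the zinc finger gene Zfp942 (1.75 ± 0.08, and -1.17 ± 0.28 in batch 3). By length, 37.1% of genes in the shortest quartile of gene span were higher and 27.3% lower in KO than Het, and 33.8% and 35.8% of those in the longest.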
